A study of Mus musculus with 6 samples.

Results

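The genes of the lipid droplet coat and of lipolysis were followed in brown adipose tissue (BAT), as a group of 10 members chosen by name: the perilipins *Plin1*, *Plin2*, *Plin4* and *Plin5*, the CIDE genes *Cidea* and *Cidec*, the lipases *Pnpla2*, *Lipe* and *Mgll*, and the lipase inhibitor *G0s2*. They are 10 of the 47729 genes with a value in each mouse, and all 10 were among the 17670 genes with enough counts to be tested. All mice were wild type male C57BL/6J, entered the study at 6 weeks of age and were fed for 4 weeks, to 10 weeks of age. The 3 HFD-fed mice received a 45% high-fat diet and the 3 LFD-fed mice a standard rodent diet low in fat, and the question was how the diet changes gene expression in BAT. Each library came from the interscapular pad of 1 singly housed mouse, and the sequenced mice were picked within each diet for the greatest, the medium and the least fat mass, so that the spread within a diet includes that choice.

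Brown adipocytes store triglyceride in many small droplets and burn the fatty acids that are released from them. Perilipins coat the droplet surface and hold the lipases off until adrenergic signals phosphorylate the coat, while CIDE proteins at droplet contacts move lipid from smaller into larger droplets. Triglyceride is then cut in sequence by the lipases ATGL, HSL and MGL, the products of *Pnpla2*, *Lipe* and *Mgll*, and G0S2 blocks the first of these enzymes.

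Levels are given as TPM (a count of transcripts scaled to the same total in every library), a scale that corrects for gene length and so allows genes to be set side by side. Differences are log2 fold changes of HFD over LFD from edgeR's quasi-likelihood test on the counts, with the standard error (SE), a 95% confidence interval and a Benjamini-Hochberg adjusted p over all genes tested. Calls needed an adjusted p below 0.01 together with a log2 fold change beyond 1.5 in either direction.

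The libraries held between 17157059 and 21603566 counts, of which mitochondrially encoded genes took 8.50% to 22.7% in HFD-fed and 3.87% to 13.8% in LFD-fed mice. The tissue label was checked against markers. *Ucp1*, the uncoupling protein that defines brown adipocytes, was at 2728, 4021 and 796 TPM in HFD replicates 1, 2 and 3 but at 443, 11.03 and 76.0 TPM in the LFD replicates, and all 8 brown adipocyte markers had a log2 fold change above 0 (summed level 1752 to 6996 TPM in HFD and 276 to 1924 TPM in LFD). All 12 skeletal muscle markers were lower in HFD-fed mice without overlap in TPM (11.6% of all genes). Their sums were 7.69 to 187 TPM in HFD and 1852 to 12851 TPM in LFD. The 6 genes that adipocytes share, among them *Adipoq* and *Fabp4*, summed to 4896 to 7175 TPM in HFD, to 21143 and 21706 TPM in LFD replicates 1 and 2, and to 5156 TPM in LFD replicate 3. The 5 white adipocyte markers summed to 42.7 to 314 TPM in HFD and 218 to 1878 TPM in LFD, the 8 macrophage markers to 1613 to 3371 and 468 to 3815 TPM, and the 4 endothelial markers to 76.2 to 334 and 101 to 200 TPM. The brown label thus held least well in the LFD-fed mice. *Ucp1* was lowest in LFD replicate 2, beside the highest muscle sum. The brown marker sum was lowest in LFD replicate 3, at 276 TPM against 595 TPM in LFD replicate 2. The make-up of the sampled tissue and the diet cannot be told apart here, which bears on every difference between diets given in the text. The part of these levels in the results was not tested. In bulk tissue, fewer cells of a type and less RNA per cell cannot be told apart.

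*Plin4* and *Plin5* lie next to each other on chromosome 17, in the same orientation with a gap of 1797 bases (GRCm38, *Plin4* chr17:56100591-56109803 and *Plin5* chr17:56111601-56117596, both on the minus strand), and the mean of *Plin4* was lower and that of *Plin5* higher in HFD-fed mice, with neither called. *Plin2* (chr4:86648386-86670060, minus strand) had the highest perilipin level in HFD-fed mice. The upstream sequences of *Plin2*, *Plin4* and *Plin5* are shown because they have the largest estimated fold changes among the perilipins, in either direction. None of them was called. The sequences are taken from RefSeq (GRCm38.p6) and end at the RefSeq start, except for *Plin5*, where the last 48 bases lie inside the GENCODE gene and were left off. The last 21 bases of the *Plin4* sequence and the last base of the *Plin2* sequence also lie inside the GENCODE gene. All are written 5′ to 3′ on the strand of the gene. Capitals mark CCAAT boxes on either strand.

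Plin2 (chr4:86670060-86670309, minus strand): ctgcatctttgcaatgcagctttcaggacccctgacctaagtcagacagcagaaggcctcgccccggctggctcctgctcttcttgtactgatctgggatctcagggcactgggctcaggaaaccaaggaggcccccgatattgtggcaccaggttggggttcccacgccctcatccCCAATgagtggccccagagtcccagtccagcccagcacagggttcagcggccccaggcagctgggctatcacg

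Plin4 (chr17:56109783-56110032, minus strand): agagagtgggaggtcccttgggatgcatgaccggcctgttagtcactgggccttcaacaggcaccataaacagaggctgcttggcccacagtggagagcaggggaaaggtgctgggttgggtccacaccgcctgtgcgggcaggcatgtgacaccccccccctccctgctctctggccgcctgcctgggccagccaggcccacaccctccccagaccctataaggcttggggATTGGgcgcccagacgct

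Plin5 (chr17:56117597-56117798, minus strand): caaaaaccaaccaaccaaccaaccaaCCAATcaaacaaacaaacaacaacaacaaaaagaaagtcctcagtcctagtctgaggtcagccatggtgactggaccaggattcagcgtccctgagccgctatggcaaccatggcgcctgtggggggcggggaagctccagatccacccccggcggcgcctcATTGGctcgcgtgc

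The CCAAT box begins at position -73 from the RefSeq start in *Plin2*, at -18 in *Plin4*, which is within the GENCODE gene, and at -224 and -62 in *Plin5*. The motif is common, with a match in 33.8% of all 32851 windows of 250 bases, and among the 9 members with a window it was found in these 3 only. Of the other motifs searched on both strands, CACGTG was found in *Mgll* and *Lipe* (6.02% of all windows) and TTGCNNNAA in *Plin1* (8.29% of all windows). TATAAA, TGACGTCA and the direct repeat bound by PPAR and RXR, with 12.4%, 1.55% and 0.0335% of all windows, had no match in the members. These are matches of letters within the window and say nothing of which factor binds there.

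None of the 10 members was called by edgeR (0 of 10, with 0% of all genes tested called in the same comparison), and none by DESeq2, which called 2.03% of all genes. At an unadjusted p under 0.05 there was 1 member by edgeR, *Plin2*, against 10.5% of all genes. By DESeq2 there were 3 such members, against 8.74% of all genes, and with the replicate number as a block 4, against 17.5% of all genes. In TPM the diets did not overlap for 2 members (13.2% of all genes in either direction). Both, *Plin2* and *Plin5*, were higher in HFD (1.65% of all genes), and 0 members were lower in this way (11.6% of all genes). In log2 CPM (counts scaled by library size and TMM factor), the diets did not overlap for 1 member (15.9% of all genes in either direction), *Plin2*, which was higher (6.72% of all genes), and 0 were lower (9.22% of all genes). The median log2 fold change was -0.45 over the members and -0.05 over all genes tested, with 4 members above 0 and 6 below.

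**Figure D1:**
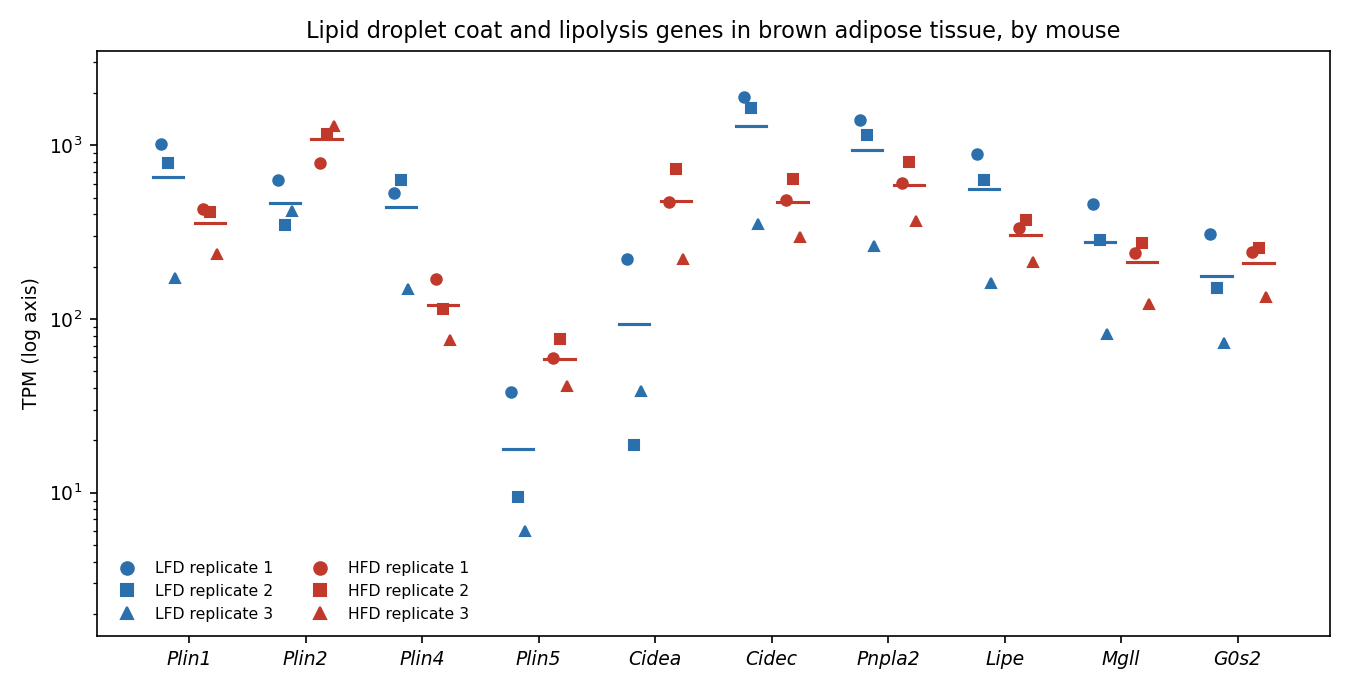
Level of each member in each mouse, in TPM on a log axis, with LFD-fed mice in blue, HFD-fed mice in red, 1 marker shape per replicate number and a line at the mean of each diet. *Plin2* and *Plin5* do not overlap between diets, whereas *Plin1*, *Cidec* and the lipases spread over a wide range within the LFD-fed mice, with LFD replicate 3 lowest.

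Among the coat genes, *Plin2* and *Plin5* were higher and *Plin1* and *Plin4* lower on average in HFD-fed mice. *Plin2* encodes the perilipin found on droplets of most cell types. It was at 792, 1168 and 1287 TPM in HFD replicates 1, 2 and 3 and at 631, 346 and 419 TPM in the LFD replicates, so that the lowest HFD-fed mouse stood above the highest LFD-fed mouse. Its log2 fold change was 1.28 (SE 0.53, 95% confidence interval 0.03 to 2.53), with an unadjusted p of 0.0466 and an adjusted p of 0.470 from edgeR. *Plin5*, which links droplets to mitochondria in oxidative tissues, was at 59.4, 76.4 and 41.0 TPM in HFD and at 38.2, 9.43 and 6.04 TPM in LFD. The HFD-fed mice were again all higher, but LFD replicate 1 came close to HFD replicate 3, and in log2 CPM the 2 mice changed places. The log2 fold change of *Plin5* was 1.62 (SE 0.93, 95% confidence interval -0.60 to 3.84, edgeR adjusted p = 0.624).

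*Plin4*, a perilipin of adipocytes and muscle that binds nascent droplets, was at 171, 114 and 75.7 TPM in HFD and at 533, 635 and 148 TPM in LFD. LFD replicate 3 lay below HFD replicate 1, so the diets overlapped. The HFD-fed mouse was lower in each of the 3 same-numbered pairs, although no source says that mice were matched by number. The log2 fold change of *Plin4* was -1.64 (SE 0.83, 95% confidence interval -3.63 to 0.35, edgeR adjusted p = 0.561). *Plin1* encodes the main coat protein of adipocyte droplets and the gatekeeper of hormone-stimulated lipolysis. It was at 431, 411 and 235 TPM in HFD and at 1012, 786 and 173 TPM in LFD, where 2 mice stood above and 1 below all HFD-fed mice. The log2 fold change of *Plin1* was -0.78 (SE 0.84, 95% confidence interval -2.79 to 1.23, edgeR adjusted p = 0.844).

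The make-up of the perilipin coat transcripts was described as the share of each gene in their sum. The 5 perilipin genes, *Plin3* included, summed to 1492, 1820 and 1684 TPM in HFD and 2249, 1810 and 796 TPM in LFD, and these sums overlapped. *Plin2* made up 53.1%, 64.2% and 76.4% of the sum in HFD replicates 1, 2 and 3, against 28.0%, 19.1% and 52.6% in LFD, so that its lowest share in HFD stood just above its highest in LFD. *Plin4* made up 11.4%, 6.28% and 4.49% in HFD and 23.7%, 35.1% and 18.6% in LFD, without overlap. *Plin5* was a minor component in every mouse, at 2.44% to 4.2% in HFD and 0.521% to 1.70% in LFD, also without overlap. The share of *Plin1* overlapped, at 14.0% to 28.9% in HFD and 21.7% to 45.0% in LFD. Shares of a sum are not independent, since a gain of any gene lowers the shares of the others. How often such shares separate the diets for other sets of genes was not tested.

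**Figure D2:**
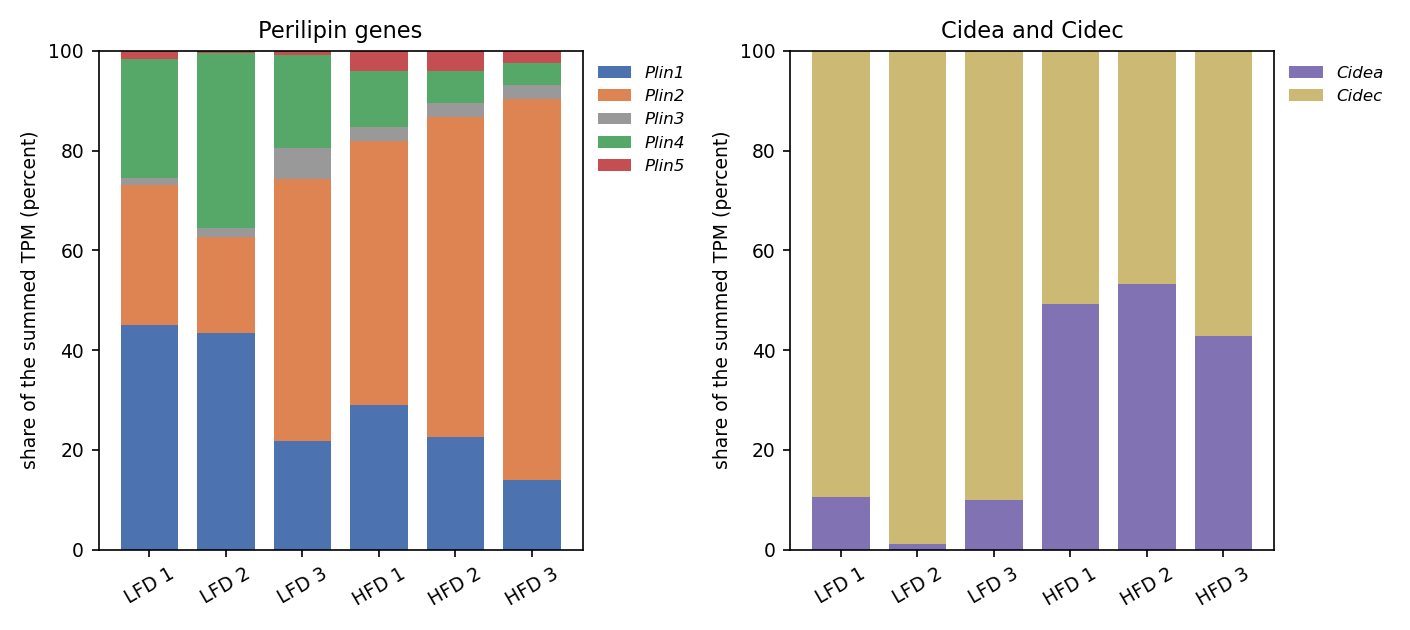
Share of each gene in the summed TPM of the 5 perilipin genes (left) and of *Cidea* and *Cidec* (right), in percent, with 1 bar per mouse. The *Plin4* band is narrower and the *Plin2* band wider in all HFD-fed mice, and *Cidea* makes up 42.8% to 53.3% of its pool in HFD against 1.13% to 10.5% in LFD.

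The mean level of *Cidea* was higher and that of *Cidec* lower in HFD-fed mice, with neither called. *Cidea*, a droplet protein typical of brown adipocytes, was at 468, 734 and 222 TPM in HFD and at 222, 18.9 and 38.6 TPM in LFD. LFD replicate 1 reached the level of HFD replicate 3, and the other LFD-fed mice were far lower. The log2 fold change of *Cidea* was 2.19, the highest of the members (SE 1.17, 95% confidence interval -0.60 to 4.99, edgeR adjusted p = 0.587). *Cidec*, which promotes the large single droplet of white adipocytes, was at 484, 642 and 297 TPM in HFD and at 1895, 1647 and 350 TPM in LFD. LFD replicates 1 and 2 stood above all other mice, and LFD replicate 3 fell among the HFD-fed mice. Its log2 fold change was -1.44 (SE 0.81, 95% confidence interval -3.38 to 0.50, edgeR adjusted p = 0.617). *Cidec* had the highest mean of the members in LFD-fed mice, but *Plin2* stood above it in LFD replicate 3 (419 against 350 TPM). In HFD-fed mice *Cidea* and *Cidec* stood side by side at means of 475 ± 256 and 474 ± 173 TPM (SD, n = 3).

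The 3 lipases had wide ranges within LFD and moved together. *Pnpla2*, the triglyceride lipase of the first step, was at 609, 797 and 365 TPM in HFD and at 1391, 1147 and 264 TPM in LFD. *Lipe*, the hormone-sensitive lipase that acts on diglyceride, was at 333, 373 and 212 TPM in HFD and at 888, 634 and 160 TPM in LFD. *Mgll*, which cuts the last fatty acid from the glycerol, was at 239, 274 and 122 TPM in HFD and at 462, 284 and 82.2 TPM in LFD. For each lipase the LFD range enclosed the HFD range. The log2 fold changes were -0.57 (SE 0.81) for *Pnpla2*, -0.80 (SE 0.82) for *Lipe* and -0.33 (SE 0.84) for *Mgll*, with edgeR adjusted p of 0.892, 0.833 and 0.949, and the 95% confidence intervals reached from -2.49 to 1.35, from -2.76 to 1.17 and from -2.34 to 1.68. These intervals leave room for a difference of over 1 log2 unit in either direction.

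Although the lipase sum ran from 507 TPM in LFD replicate 3 to 2741 TPM in LFD replicate 1, its composition was much the same in all mice. *Pnpla2* made up 51.6% to 55.2% of it in HFD and 50.8% to 55.6% in LFD. *Lipe* made up 25.8% to 30.3% in HFD and 30.7% to 32.4% in LFD, and *Mgll* 17.5% to 20.2% in HFD and 13.7% to 16.9% in LFD. The shares of *Lipe* and *Mgll* thus did not overlap between diets, although they differed by a few percentage points only. As for the perilipins, these shares depend on each other, and the rate for other sets of genes was not tested.

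*G0s2*, the inhibitor of the *Pnpla2* product, was at 244, 255 and 133 TPM in HFD and at 308, 151 and 72.8 TPM in LFD. The LFD range enclosed the HFD range, as for the lipases. The log2 fold change of *G0s2* was 0.28 (SE 0.78, 95% confidence interval -1.58 to 2.15, edgeR adjusted p = 0.952). The gene lies within *Lamb3* on the opposite strand, and *Plin4*, *Cidea*, *Lipe* and *Mgll* also overlap a gene annotated on the other strand. Whether the counting used the strand is not given in the sources used here, so reads from the overlaps cannot be assigned to either gene with certainty.

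Without LFD replicate 1, the log2 fold changes of *Plin2*, *Plin5* and *Cidea* were 2.01, 3.48 and 4.63, each with an edgeR adjusted p of 0.174, those of *Plin4* and *Cidec* were -1.08 and -0.66, and those of *Plin1*, *Pnpla2*, *Lipe* and *Mgll* turned to 0.16, 0.30, 0.21 and 0.76. The median over the members turned to 0.53. *Plin4* moved furthest without HFD replicate 1, to -2.37. The direction of *G0s2* turned without HFD replicate 1 (-0.16) or LFD replicate 3 (-0.18), and that of *Mgll* without HFD replicate 3 (0.02). *Plin2*, *Plin5* and *Cidea* stayed above 0 and *Plin4* and *Cidec* below 0 whichever mouse was left out.

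**Figure D3:**
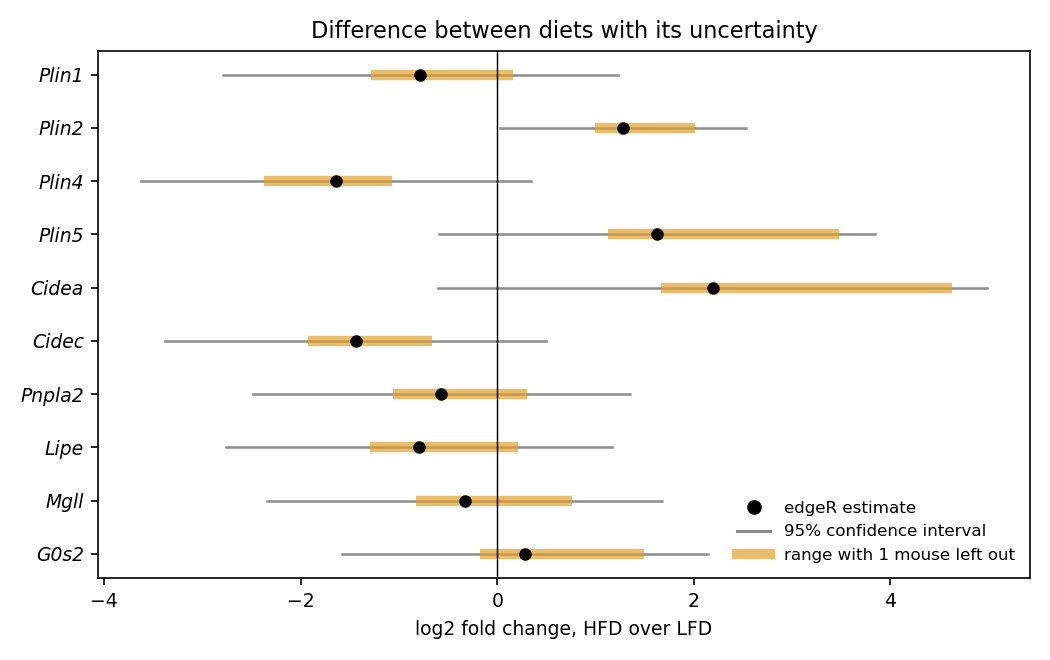
Log2 fold change of each member, HFD over LFD, from edgeR (point) with its 95% confidence interval (grey line) and the range over the 6 fits that leave out 1 mouse each (orange bar). Only the interval of *Plin2* lies above 0, from 0.03, and the orange bars of *Plin1*, *Pnpla2*, *Lipe*, *Mgll* and *G0s2* cross 0.

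A ratio of 2 genes within the same library does not depend on library scaling. Of 7 ratios compared, 5 did not overlap between diets and so reached the smallest p that 3 mice against 3 allow in an exact two-sided permutation test, which is 0.1 (0.14 after Benjamini-Hochberg adjustment over the 7). For scale, the ratio to *Plin1* did not overlap for 4.32% of all genes, to *Pnpla2* for 4.66% and to *Cidea* for 29.2%. Of the ratios compared, 2 of 3 to *Plin1*, 2 of 3 to *Pnpla2* and the 1 to *Cidea* did not overlap. The members were chosen with earlier results of these data known, and the shares of all genes were added after seeing the data. No excess over those shares can therefore be read from the ratios. *Cidec* over *Cidea* was 1.03, 0.875 and 1.34 in HFD and 8.53, 87.4 and 9.07 in LFD, a 17.7-fold lower geometric mean in HFD. Its log2 difference of -4.15 shrank to -3.05 without LFD replicate 2. *Plin5* over *Plin1* was 0.138, 0.186 and 0.175 in HFD and 0.0377, 0.0120 and 0.0350 in LFD, 6.57-fold higher in HFD. *Plin4* over *Plin1* was 0.396, 0.279 and 0.322 in HFD and 0.527, 0.807 and 0.859 in LFD, 2.17-fold lower in HFD.

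The ratio of the inhibitor to its target also separated the diets. *G0s2* over *Pnpla2* was 0.401, 0.320 and 0.365 in HFD and 0.222, 0.131 and 0.275 in LFD, 1.80-fold higher in HFD, while neither gene alone differed beyond its spread. *Mgll* over *Pnpla2* was 0.335 to 0.393 in HFD and 0.247 to 0.332 in LFD, 1.21-fold higher. The other two ratios overlapped. *Plin2* over *Plin1* was 1.84, 2.84 and 5.47 in HFD and 0.623, 0.440 and 2.42 in LFD, and *Lipe* over *Pnpla2* was 0.469 to 0.579 in HFD and 0.552 to 0.638 in LFD, both with p = 0.2 in the exact permutation test (0.2 after adjustment). The log2 difference of *Plin2* over *Plin1*, 1.81 in all mice, was 2.55 without LFD replicate 3.

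**Figure D4:**
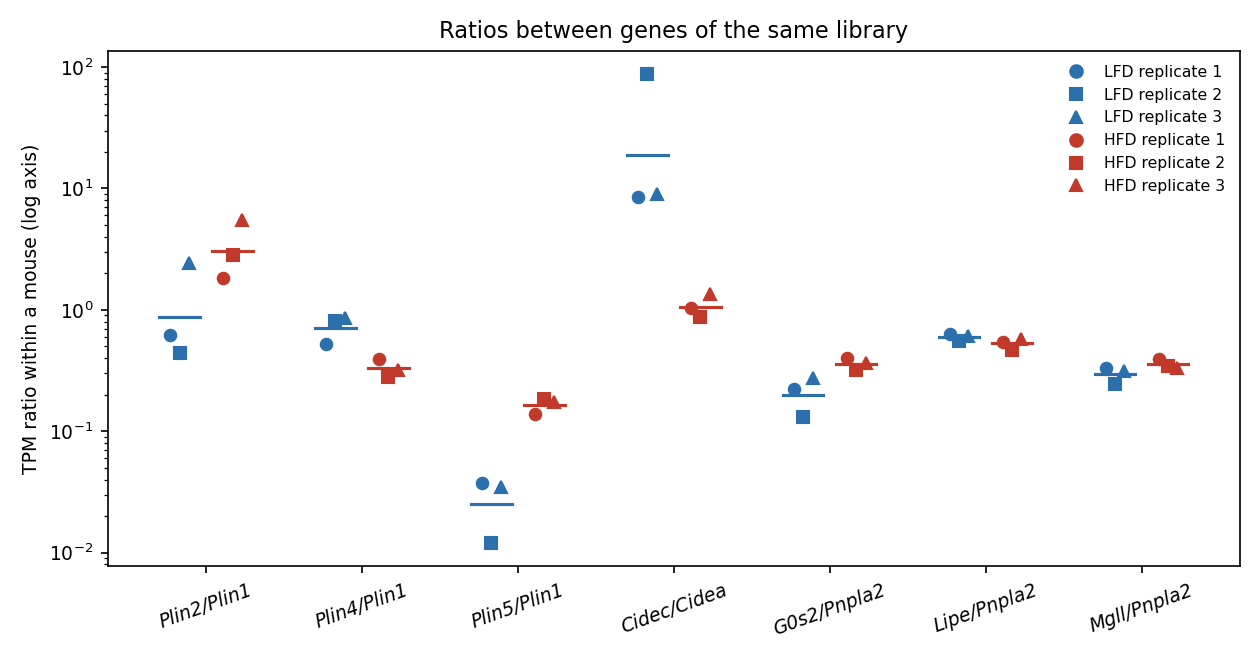
Ratio of 2 members' TPM within each mouse, on a log axis, with LFD-fed mice in blue, HFD-fed mice in red and a line at the geometric mean of each diet. *Cidec* over *Cidea* lies between 0.875 and 1.34 in HFD and at 8.53 or more in LFD, and *Lipe* over *Pnpla2* overlaps.

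Because the adipocyte genes themselves varied between mice, each member was also described relative to the mean log2 TPM of the 6 adipocyte genes. On this scale 8 of the 10 members were higher in HFD without overlap (5.73% of all genes) and 1, *Plin4*, was lower (1.65% of all genes). The result depends on *Cfd*, the adipocyte gene for complement factor D, whose own log2 fold change was -3.26. With *Cfd* left out of the 6, 4 members stayed higher, *Cidea*, *Plin5*, *Plin2* and *G0s2* (3.48% of all genes), with log2 differences of 3.54, 2.72, 1.81 and 1.01. *Plin4* and *Cidec* were then lower (2.60% of all genes), by log2 differences of -1.12 and -0.61, and *Plin1*, *Pnpla2*, *Lipe* and *Mgll* overlapped, with differences of 0.00, 0.16, -0.02 and 0.44.

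**Figure D5:**
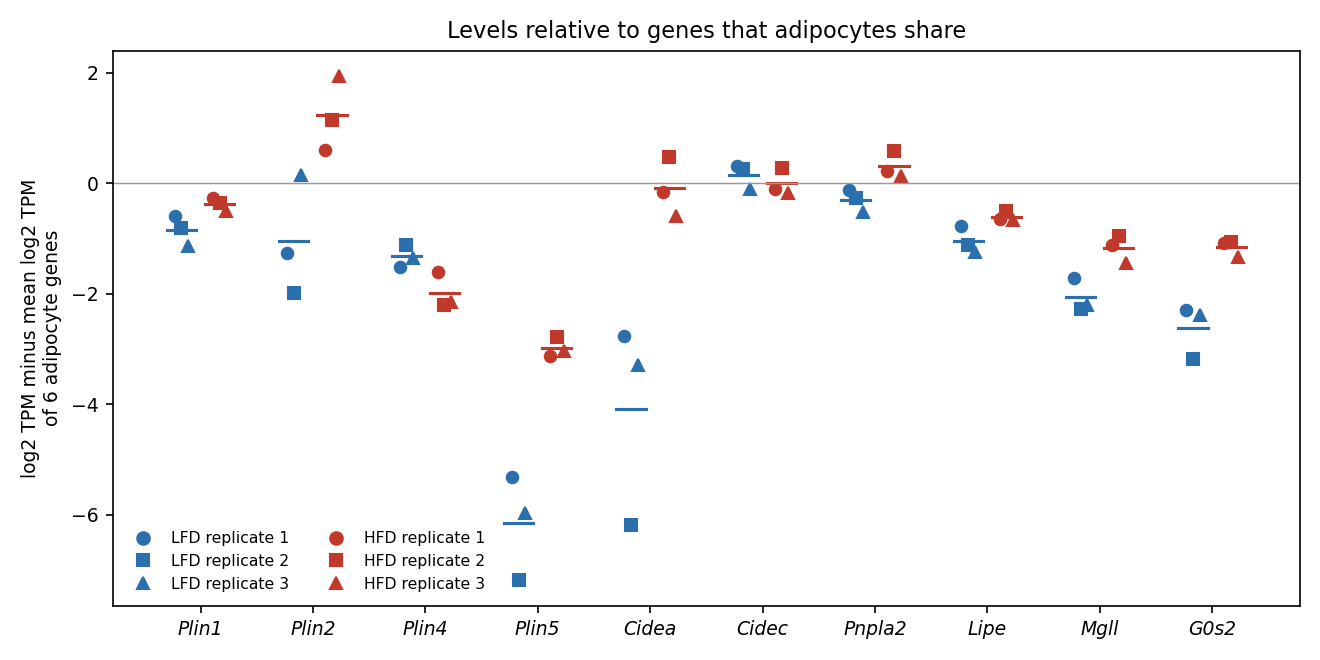
Log2 TPM of each member minus the mean log2 TPM of 6 adipocyte genes (*Cfd* included) in each mouse, with a line at the mean of each diet. *Plin5* and *Cidea* have the widest gap between HFD (red) and LFD (blue), *Plin4* is lower in HFD and *Cidec* overlaps.

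The order of the levels differed between diets. In HFD-fed mice *Plin2* had the highest mean, 1082 ± 258 TPM, and *Plin5* the lowest, 58.9 ± 17.7 TPM (SD, n = 3). In LFD-fed mice *Cidec* came first at 1297 ± 829 TPM, followed by *Pnpla2* at 934 ± 593 and *Plin1* at 657 ± 434 TPM, and *Cidea* and *Plin5* came last at 93.2 ± 112 and 17.9 ± 17.6 TPM. Although the SDs of the first 3 overlapped widely, *Cidec* stood above *Pnpla2* and *Pnpla2* above *Plin1* within each of the 3 LFD-fed mice. In LFD replicate 3, however, *Plin2* at 419 TPM stood above *Cidec* at 350 TPM. *Plin2* was above *Pnpla2*, the next in order, in each of the 3 HFD-fed mice, whereas *Cidea* was above *Cidec* in 1 of 3.

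Of 24 other genes of droplet formation and lipolysis, 22 were tested, and edgeR called 0 of them. At an unadjusted edgeR p under 0.05 there were 5, of which 2 were higher and 3 lower in HFD-fed mice (3.86% and 6.62% of all genes). DESeq2 called 3, *Fitm1*, *Mettl7b* and *Lipa*, against 2.03% of all genes. The median log2 fold change of the 22 was -0.16, with 7 above 0 and 15 below. The 2 highest were *Hilpda*, the hypoxia-inducible inhibitor of ATGL, at 1.63 (SE 0.41, edgeR adjusted p = 0.239), and *Lipa*, the acid lipase of lysosomes, at 1.52 (SE 0.34, edgeR adjusted p = 0.190). *Hilpda* was at 12.9, 25.6 and 28.3 TPM in HFD and at 4.61, 4.75 and 15.9 TPM in LFD, so LFD replicate 3 stood above HFD replicate 1. In log2 CPM, however, all HFD-fed mice were higher (6.72% of all genes). The DESeq2 adjusted p of *Hilpda* was 0.014, short of the threshold of 0.01. Macrophages are rich in lysosomes. Of the 8 macrophage markers, 6 had a log2 fold change above 0, with a range of -0.16 to 1.72 over the 8. EdgeR called 0 of them, and 2 had an unadjusted edgeR p under 0.05, both higher in HFD (3.86% of all genes). The sums of the macrophage markers overlapped between diets. The part of macrophages in the *Lipa* difference was not tested.

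The 2 lowest were *Fitm1*, which helps to form droplets in muscle, at -5.69 (SE 0.96, edgeR adjusted p = 0.170), and *Mettl7b*, a methyltransferase found on droplets, at -4.07 (SE 1.01, edgeR adjusted p = 0.231). *Mettl7b* had only 7, 3 and 1 counts in HFD replicates 1, 2 and 3, and 83, 79 and 14 in the LFD replicates. *Fitm1* was at 0.12, 0.42 and 0.06 TPM in HFD, from 1 to 6 counts a mouse, and at 7.81, 23.1 and 4.02 TPM in LFD. Its order among the LFD-fed mice was that of the skeletal muscle sums, 5483, 12851 and 1852 TPM, and the part of muscle in the difference was not tested. *Abhd5*, the co-activator of ATGL, had a log2 fold change of -1.25 (SE 0.59, edgeR adjusted p = 0.531). It was lower in HFD in each of the 3 same-numbered pairs, although no source says that mice were matched by number. *Plin3* and *Aqp7*, the glycerol channel, had log2 fold changes of 0.42 (SE 0.28) and 0.61 (SE 0.65), with edgeR adjusted p of 0.694 and 0.840. Both inhibitors of ATGL, *G0s2* and *Hilpda*, had values above 0 and its co-activator a value below 0, and edgeR called none of them; the sign of *G0s2* turned without HFD replicate 1 (-0.16) or LFD replicate 3 (-0.18).

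The genes most like 4 members across the 6 mice were looked up by Pearson's r of log2 CPM among 4898 well expressed genes. For *Plin1* they were *Alas1* (r = 0.998) and *Adig* (0.996), and for *G0s2* the oxidative phosphorylation genes *Uqcr11* (0.999) and *Atp5k* (0.998). On log2 TPM these r were 0.991 to 0.998. For *Pnpla2* they were *Pcmtd1* and *Hbp1* (both 0.998), with 0.930 and 0.359 on log2 TPM. For *Cidea* they were *Naa20* (0.994) and *Lamp1* (0.991), with 0.0833 and -0.235 on log2 TPM, and *Naa20* stayed between 48.0 and 65.4 TPM in all mice. The likeness of *Naa20* and *Lamp1* to *Cidea*, and of *Hbp1* to *Pnpla2*, thus held on the TMM-scaled counts and not on TPM. All r share the libraries and their depth. As the highest of 4898 genes over 6 mice, they are also raised by the choice itself.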

How the data were processed

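The authors trimmed the single-end reads with Trimmomatic 0.36 and quantified them with RSEM 1.3.0 on GRCm38.p4, and deposited expected counts and TPM values for every gene and mouse. RSEM splits reads with several possible origins, so expected counts of near-identical genes are uncertain. The expected counts were rounded and tested in R 4.3.3 with edgeR 4.0.16 (quasi-likelihood test, TMM, edgeR's filter on low counts, Benjamini-Hochberg adjustment); the BCV was 0.448. The submitters' notes name DESeq2 1.10.1; DESeq2 1.42.0 was an alternative here. Log2 CPM used a prior count of 2, and limma 3.58.1 was run on log2(TPM + 1). Ratios were compared by exact permutation tests over the 20 splits of 6 mice into 3 and 3. Totals of 17157059 to 21603566 counts set the counting error, and no 2 libraries of the same diet were repeats; pairs across diets were not compared.

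Mice were grouped by the diet in their labels, which number them 1 to 3 within a diet. Deviations from the diet means correlated across genes in every same-numbered pair (r = 0.498, 0.229 and 0.522). In different-numbered pairs r ran from -0.528 to 0.0532. Deviations within a diet cancel out, so these r depend on each other. An alternative fit took the number as a block. The pairing rests on the same counts that the block was fitted to, since no source says that mice were matched.

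The other alternatives were RLE size factors, no filter or at least 10 counts in every mouse, removal of ribosomal RNA and mitochondrially encoded genes, an adjusted p under 0.05 with no fold threshold, and each mouse left out. Leaving out both replicates 3 or *Cfd*, the perilipin shares and the shares of all genes for the ratios were added after seeing the data. The members and all lists were chosen with earlier results of these data known. Named were all members, *Plin3*, *Abhd5*, *Hilpda*, *Aqp7* and *Fitm1*, the 2 lowest and 2 highest other genes, and for 4 members the 2 genes of highest r with a mean log2 CPM of at least 5. Positions are from GENCODE M21 and promoter windows from RefSeq. Statistical code was tested on simulated data.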

Additional observations from a re-analysis of the deposited data

How the results depend on the processing

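No member was called by edgeR or DESeq2 under any alternative, and the lowest adjusted p of a member over all alternatives was 0.148 (*Plin5* with the replicate block). DESeq2 called 306 genes lower and 106 higher among all genes, against 0 by edgeR, and 3 of the other droplet and lipolysis genes. Both tools were run on simulated counts with known differences, but which is nearer the truth in these mice was not tested. Of the member values, 132 kept their direction and 8 reversed. With the replicate block the log2 fold changes were 1.498 for *Plin2*, 2.39 for *Plin5*, 3.13 for *Cidea*, -1.47 for *Plin4* and -1.07 for *Cidec* (adjusted p 0.170, 0.148, 0.197, 0.179 and 0.287), that of *Mgll* reversed to 0.091, and the block changed no call. With 1 mouse left out the ranges were -1.28 to 0.16 for *Plin1*, 0.99 to 2.01 for *Plin2*, -2.37 to -1.08 for *Plin4*, 1.13 to 3.48 for *Plin5*, 1.66 to 4.63 for *Cidea*, -1.93 to -0.66 for *Cidec*, -1.06 to 0.30 for *Pnpla2*, -1.29 to 0.21 for *Lipe*, -0.82 to 0.76 for *Mgll*, -0.18 to 1.496 for *G0s2* and -0.94 to 0.53 for the median. The cause of the reversals was not tested. The 7 ratios kept their direction in all 63 alternatives; with 1 mouse left out the log2 differences ran from -4.72 to -3.05 for *Cidec*/*Cidea*, 2.18 to 3.01 for *Plin5*/*Plin1*, -1.34 to -0.99 for *Plin4*/*Plin1*, 1.32 to 2.55 for *Plin2*/*Plin1*, 0.54 to 1.08 for *G0s2*/*Pnpla2*, 0.15 to 0.36 for *Mgll*/*Pnpla2* and -0.24 to -0.09 for *Lipe*/*Pnpla2*. Without both replicates 3 the median was -0.57. On log2(TPM + 1) the median of all genes was -0.18 and that of the members -0.28; relative to it the members' directions were as on the counts, except that *Mgll* (-0.14) lay above it. With 3 mice a diet, an interval of *Cidea* over 5 log2 units wide limits what can be called.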
